A study of Mus musculus with 17 samples.

Results

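The genes described are 8 of the CC chemokine system: the ligand genes Ccl2, Ccl7, Ccl8, Ccl3, Ccl5 and Ccl11 and the receptor genes Ccr1 and Ccr2. They were chosen by name, with earlier results of these data known and with no threshold on their values. Each is read from 1 probe set that carries its symbol alone. They are 8 of 22180 genes on the arrays. The tissue was periprostatic fat, which lies next to the prostate, and came from 17 C57BL/6J males, whose RNA was hybridised one by one to Affymetrix Mouse Gene 2.0 ST arrays. Diets began at 6 weeks of age and the fat was taken at 25 weeks. The low-fat mice (LFD, n = 6) had free access to a diet with 10 kcal% fat throughout. The high-fat mice (HFD, n = 6) had free access to a diet with 60 kcal% fat throughout. The restricted mice (HFD+CR, n = 5) ate the 60 kcal% diet freely for 12 weeks and then, for 7 weeks, a daily ration of 70% of what the HFD mice ate. This follows the treatment text of the labels, while their text on housing gives all mice free access to food and does not except this group, so the restriction rests on the treatment text and the group's label. The HFD+CR group therefore shares the first 12 weeks of high-fat feeding with the HFD group, and no group was restricted on the low-fat diet. All mice were males of 1 strain, and the feeding state at harvest is not given in the sources used here.

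CC chemokines are small secreted proteins, named for a pair of adjacent cysteines, that attract leukocytes through receptors coupled to inhibitory G proteins. Ccl2, Ccl7 and the receptor Ccr2 are known for bringing monocytes from marrow and blood into tissue, and in expanding adipose tissue Ccl2 is a widely used sign of macrophage recruitment. Ccl3 and Ccl5 are ligands of Ccr1, Ccl7 can act on both Ccr1 and Ccr2, mouse Ccl8 acts mainly through Ccr8, and Ccl11, also called eotaxin, attracts eosinophils through Ccr3.

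Values are log2 array signals as deposited. A difference is a difference between group means on this log2 scale ± its standard error (SE), and group means are given ± SD. Adjusted p-values are from limma with Benjamini-Hochberg adjustment over all 22180 genes, and a gene is said to have risen or fallen where its adjusted p was under 0.05. Array medians lay between 7.03 and 7.15, so a signal near 7 is that of the middle probe set of an array. Some arrays also carried signal of neighbouring tissue. The mean of 12 skeletal muscle genes was 10.6 in LFD mouse 2, 9.38 in LFD mouse 3 and 9.43 in HFD+CR mouse 2, and that of 13 prostate and accessory gland genes was 8.58 in LFD mouse 3 and 7.73 in HFD mouse 3, against group medians of 7.24 to 7.67 and 6.16 to 6.21. The mean of 9 male germ cell genes was 9.20 in HFD+CR mouse 1. The mean of 10 adipocyte genes, among them Adipoq and Plin1, lay between 11.95 and 12.62 in all mice, as the tissue label would have it. In whole tissue, fewer cells of a type and less RNA per cell cannot be told apart.

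On the high-fat diet 6 of the 8 genes rose and 0 fell, and on restriction of that diet 6 fell and 0 rose. The HFD increases were in Ccl2, Ccl7, Ccl3, Ccl8, Ccr2 and Ccl11, in order of size. The HFD+CR decreases were in Ccl2, Ccl7, Ccl8, Ccl3, Ccr2 and Ccr1. Against LFD, Ccl3, Ccl2 and Ccl11 were still higher in HFD+CR and 0 of the 8 were lower. Ccl5 passed in no comparison. At an unadjusted p under 0.05 by limma, 7 rose and 0 fell on HFD, 1 rose and 6 fell on restriction, and 4 were higher and 0 lower in HFD+CR than in LFD. The shares of all genes are given at an adjusted p under 0.05, and no share was counted for the unadjusted p. Of all genes, 16.5% rose and 11.3% fell from LFD to HFD. From HFD to HFD+CR 7.69% rose and 11.3% fell, and 5.8% were higher and 3.28% lower in HFD+CR than in LFD. The 8 were chosen with earlier results of these data known, so counts beside all-gene shares, here and below, are a description only. The median difference of the 8 was 0.77 for HFD minus LFD and -0.92 for HFD+CR minus HFD, where the medians of all genes were -0.0032 and -0.0024. From LFD to HFD, 3663 genes rose and 2502 fell, and with each array centred on the median of its genes these counts were 3076 and 3347, while the 8 genes kept their directions.

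The HFD and LFD groups did not overlap for 5 of the 8 genes (Ccl2, Ccl7, Ccl8, Ccl3 and Ccl11), against 14.3% of all genes. The HFD+CR and HFD groups did not overlap for 5 (Ccl2, Ccl7, Ccl8, Ccl3 and Ccr2), against 13.7% of all genes. The HFD+CR and LFD groups did not overlap for 1, Ccl11, against 6.67% of all genes. Each pair of comparisons shares a group of mice, and the HFD mice enter both the increases on the high-fat diet and the decreases on restriction, so their values are given side by side.

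**Figure D1:**
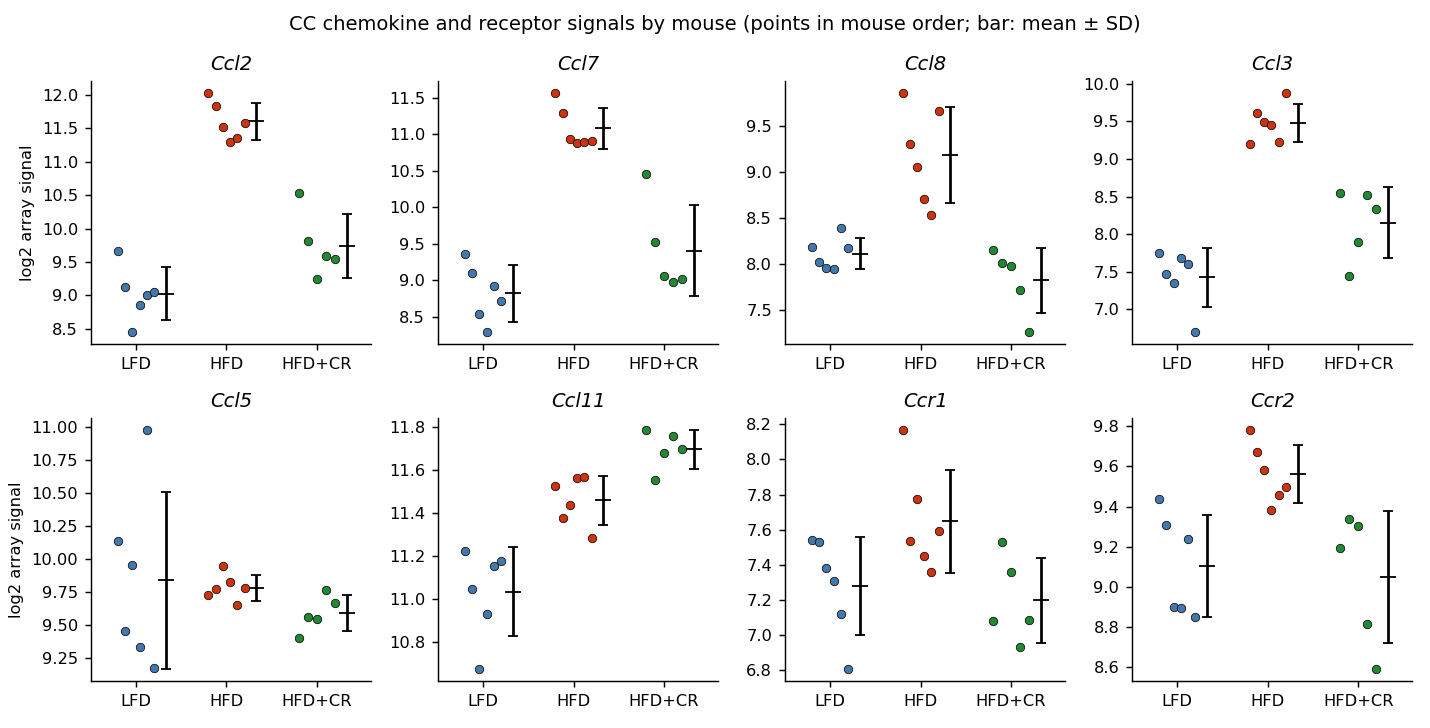
Log2 array signal of the 8 genes in each mouse (points, in mouse order within a group), with the group mean ± SD beside them, for LFD (n = 6), HFD (n = 6) and HFD+CR (n = 5); each panel has its own axis. Ccl2, Ccl7 and Ccl3 are highest in HFD with HFD+CR between, Ccl11 is highest in HFD+CR, and Ccl5 varies most among the LFD mice, from 9.17 to 10.98.

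Ccl2, the monocyte chemoattractant gene, had the largest difference of the 8 between HFD and LFD. Its LFD signals ran from 8.45 to 9.66 with a median of 9.03, and its HFD signals from 11.29 to 12.03 with a median of 11.55. The HFD+CR mice 1 to 5 had 10.53, 9.81, 9.24, 9.59 and 9.54. Every HFD mouse was above every mouse of the other groups, and the HFD+CR mice overlapped the upper LFD mice. The means were 9.03 ± 0.39 in LFD, 11.60 ± 0.28 in HFD and 9.74 ± 0.48 in HFD+CR. Ccl2 rose by 2.57 ± 0.20 on HFD (5.95-fold, adjusted p = 4.58e-08) and fell by 1.86 ± 0.21 on restriction (3.62-fold lower, adjusted p = 1.36e-05). It remained higher in HFD+CR than in LFD by 0.72 ± 0.21 (1.64-fold, adjusted p = 0.0406), and this call was lost in 17 of 33 alternative analyses, among them leaving out HFD+CR mouse 1 (0.52, adjusted p = 0.113).

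Ccl7, whose product also attracts monocytes, lies next to Ccl2 in the genome and had a like pattern. Its LFD signals ran from 8.28 to 9.36 with a median of 8.81, and its HFD signals from 10.89 to 11.57 with a median of 10.92. The HFD+CR mice 1 to 5 had 10.45, 9.52, 9.06, 8.97 and 9.02. HFD+CR mouse 1 was again the highest of its group, below the lowest HFD mouse. HFD+CR mouse 2 lay just above the LFD range, and mice 3, 4 and 5 lay within it. Ccl7 rose by 2.26 ± 0.23 on HFD (4.80-fold, adjusted p = 6.75e-07) and fell by 1.68 ± 0.24 on restriction (3.20-fold lower, adjusted p = 8.47e-05). The difference of HFD+CR from LFD was 0.59 ± 0.24, with a 95% interval of 0.08 to 1.09 and an adjusted p of 0.153, and it passed in 1 of 33 alternative analyses. HFD+CR mouse 1 is also the mouse with the highest germ cell mean and the highest macrophage mean of its group, and the part of either in its chemokine signals was not tested.

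Ccl8, also of the monocyte chemoattractant group, had a smaller HFD difference and HFD+CR signals at or below those of LFD. Its LFD signals lay close together, from 7.95 to 8.39 with a median of 8.09, while the HFD signals spread from 8.53 to 9.86 with a median of 9.17. The HFD+CR mice 1 to 5 had 8.14, 8.01, 7.97, 7.71 and 7.25. The lowest HFD mouse was just above the highest LFD mouse, and HFD+CR mice 4 and 5 were below every LFD mouse. Ccl8 rose by 1.08 ± 0.20 on HFD (2.11-fold, adjusted p = 0.0004) and fell by 1.37 ± 0.21 on restriction (2.58-fold lower, adjusted p = 0.000137). HFD+CR differed from LFD by -0.29 ± 0.21, with a 95% interval of -0.73 to 0.14 and an adjusted p of 0.456.

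Ccl11, the eotaxin gene, was the one of the 8 whose group means were ordered LFD, HFD, HFD+CR. Its LFD signals ran from 10.67 to 11.22 with a median of 11.10, and its HFD signals from 11.28 to 11.57 with a median of 11.48. The HFD+CR mice 1 to 5 had 11.79, 11.55, 11.68, 11.76 and 11.70. All HFD and all HFD+CR mice were above all LFD mice, and 4 of the 5 HFD+CR mice were above every HFD mouse. Ccl11 was higher by 0.42 ± 0.08 in HFD (1.34-fold, adjusted p = 0.00063) and by 0.66 ± 0.09 in HFD+CR (1.58-fold, adjusted p = 0.000108), each against LFD. HFD+CR minus HFD was 0.24 ± 0.09 with an adjusted p of 0.0632, so these neighbours in the order did not differ past the threshold, though in 12 of 33 alternative analyses they did. Of 5 eosinophil genes, 1 rose (Siglecf, 0.24) and 1 fell (Il5ra, -0.58) from LFD to HFD, and from HFD to HFD+CR 0 passed by limma, also at an unadjusted p under 0.05. The mean of the 5 lay between 6.12 and 6.46 in all mice, below the array medians, where a change is poorly seen.

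Ccl3, the gene of macrophage inflammatory protein 1 alpha, rose almost as far as Ccl7. Its LFD signals ran from 6.70 to 7.75 with a median of 7.53, and LFD mouse 6 was below the median of its array. Its HFD signals ran from 9.20 to 9.88 with a median of 9.47, and the HFD+CR mice 1 to 5 had 8.55, 7.45, 7.90, 8.52 and 8.34. No HFD mouse overlapped the other groups, and 4 of the 5 HFD+CR mice were above every LFD mouse. Ccl3 rose by 2.05 ± 0.19 on HFD (4.14-fold, adjusted p = 3.04e-07) and fell by 1.32 ± 0.20 on restriction (2.50-fold lower, adjusted p = 0.000155). It remained 0.73 ± 0.20 above LFD in HFD+CR (1.66-fold, adjusted p = 0.0305), a call lost in 10 of 33 alternative analyses, among them without LFD mice 3 and 6 (0.53, adjusted p = 0.124).

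Ccl5, the RANTES gene, which T cells and NK cells express strongly, did not pass in any comparison. Its LFD signals ran from 9.17 to 10.98 with a median of 9.71, its HFD signals from 9.65 to 9.95 with a median of 9.78, and the HFD+CR mice 1 to 5 had 9.41, 9.56, 9.55, 9.77 and 9.67. The LFD mice held both the lowest and the highest signals of all 17, and their SD of 0.67 compares with 0.10 in HFD and 0.14 in HFD+CR. The differences were -0.06 ± 0.21 for HFD minus LFD (95% interval -0.51 to 0.39, adjusted p = 0.888), -0.19 ± 0.22 for HFD+CR minus HFD (adjusted p = 0.646) and -0.25 ± 0.22 for HFD+CR minus LFD (adjusted p = 0.578). The interval for HFD minus LFD allows a fall of 0.51 or a rise of 0.39 and holds none of the sizes seen in Ccl2, Ccl7 or Ccl3. The fit takes 1 spread for all 3 groups, so with SDs this unequal its SEs and intervals are approximate. The wide LFD spread thus also enters HFD+CR minus HFD, where 3 of the 5 HFD+CR mice were below every HFD mouse. That comparison passed in 0 of 33 alternative analyses, with a lowest adjusted p of 0.0638 by limma. LFD mouse 5, with 10.98, and LFD mouse 1, with 10.14, were also the mice with the highest mean over 10 T cell genes, 8.21 and 7.91, where the other 15 mice had 7.30 to 7.63. By limma 0 of the 10 T cell genes passed in any comparison, and at an unadjusted p under 0.05 0 passed for HFD minus LFD and 1 was lower in each of the others. The part of the T cell signal in the Ccl5 values was not tested.

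**Figure D2:**
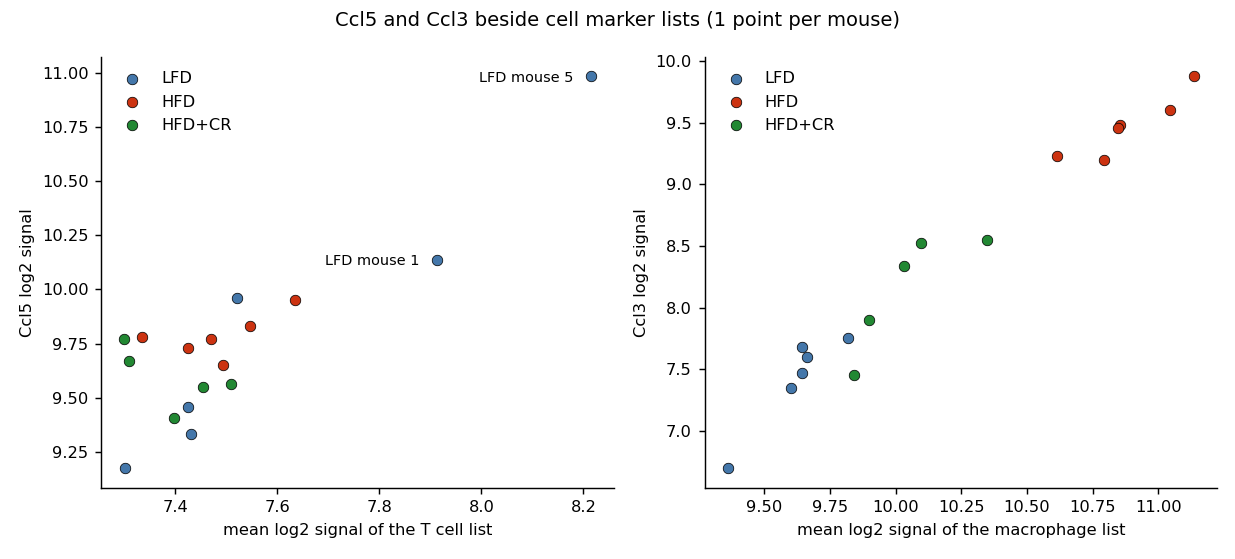
Log2 signal of Ccl5 against the mean of 10 T cell genes (left) and of Ccl3 against the mean of 13 macrophage genes (right), 1 point per mouse, coloured by group. LFD mice 5 and 1 stand apart at the upper right for Ccl5, and for Ccl3 the HFD mice lie above 9.1 with macrophage means of 10.61 to 11.14.

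The receptor genes Ccr2 and Ccr1 had HFD differences under 0.5. Ccr2, the Ccl2 receptor of inflammatory monocytes, had LFD signals from 8.85 to 9.44 with a median of 9.07 and HFD signals from 9.39 to 9.78 with a median of 9.54. The HFD+CR mice 1 to 5 had 9.20, 9.34, 9.30, 8.81 and 8.59. One LFD mouse, mouse 1, reached into the HFD range, while every HFD+CR mouse was below every HFD mouse. Ccr2 rose by 0.46 ± 0.13 on HFD (1.37-fold, adjusted p = 0.013) and fell by 0.52 ± 0.14 on restriction (1.43-fold lower, adjusted p = 0.0123), and HFD+CR minus LFD was -0.06 ± 0.14 (95% interval -0.35 to 0.23, adjusted p = 0.867). Without LFD mice 3 and 6 the HFD difference was 0.34 with an adjusted p of 0.0895.

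Ccr1, a receptor of monocytes, macrophages and neutrophils for Ccl3, Ccl5 and Ccl7, was near the array median. Its LFD signals ran from 6.81 to 7.54 with a median of 7.34, and its HFD signals from 7.36 to 8.17 with a median of 7.56. The HFD+CR mice 1 to 5 had 7.08, 7.53, 7.36, 6.93 and 7.08. All groups overlapped, HFD mouse 1 was the highest, and 3 of the 5 HFD+CR mice and 1 LFD mouse were below their array medians. The HFD difference of 0.37 ± 0.14 missed the threshold (95% interval 0.06 to 0.67, adjusted p = 0.0678) and passed it in 6 of 32 alternative analyses. Ccr1 fell by 0.45 ± 0.15 on restriction (1.37-fold lower, adjusted p = 0.044), and this call was lost in 13 of 32, among them without HFD mouse 1 (-0.35, adjusted p = 0.0973).

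**Figure D3:**
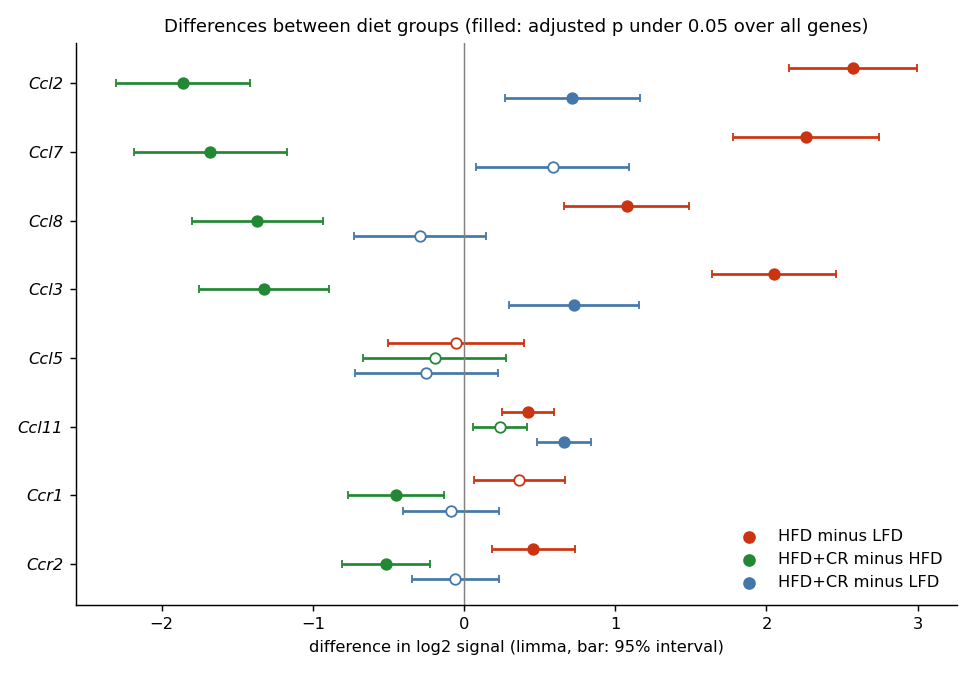
Difference in log2 signal between diet groups for each gene (points), with its 95% interval from limma (bars); filled points have an adjusted p under 0.05 over all genes. Ccl2, Ccl7 and Ccl3 reach above 2 for HFD minus LFD, and Ccl5 lies near 0 in all 3 comparisons.

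Whether pairs of these genes, chosen with earlier results known, changed by different amounts was tested on the difference between both signals within each array. For 8 pairs in 3 comparisons (24 two-sided exact permutation tests over mice, Benjamini-Hochberg over the 24, smallest possible p 0.00216), 15 had an adjusted p under 0.05. Ccl2 rose more than Ccl8 on HFD, by 1.5 (adjusted p = 0.00577 by the exact test), with all 6 HFD mice above all 6 LFD mice. In HFD+CR the Ccl2 minus Ccl8 difference was still 1.01 above LFD (adjusted p = 0.0142 by the exact test), with 4 of 5 mice above every LFD mouse. The corresponding values for Ccl7 minus Ccl8 were 1.19 (adjusted p = 0.00577) and 0.88 (adjusted p = 0.0173) by the exact test. Ccl2 also rose slightly more than its neighbour Ccl7 on HFD, by 0.31 (adjusted p = 0.0312 by the exact test), with 2 of 6 HFD mice above every LFD mouse. That call was lost in 7 of 21 alternative analyses, on leaving out HFD mouse 2, 3 or 6, LFD mouse 3 or 5, or LFD mice 3 and 6, and without the 4 arrays named above for muscle or prostate signal, where the difference was 0.18 (adjusted p = 0.202 by the exact test). The HFD+CR calls against LFD of Ccl2 minus Ccl8 and of Ccl7 minus Ccl8 were each lost in 2 of 21, without those 4 arrays (0.98 and 0.96, each adjusted p = 0.105 by the exact test) and without LFD mice 3 and 6. Leaving out arrays raises the smallest possible p of the exact test. A call of any pair, here and below, can therefore be lost without a smaller difference.

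Ccl8 and Ccl11 parted on restriction. Ccl8 minus Ccl11 was 1.60 lower in HFD+CR than in HFD (values -3.88 ± 0.37 and -2.27 ± 0.59, adjusted p = 0.0104 by the exact test) and 0.95 lower than in LFD (-2.92 ± 0.14, adjusted p = 0.00577 by the exact test). All 5 HFD+CR mice were below every mouse of the other groups. The call against LFD was lost in 1 of 21 alternative analyses, without the 4 arrays (-1.01, adjusted p = 0.0623 by the exact test). There the remaining mice were still fully apart and the difference was no smaller. The unadjusted p was the smallest that so few mice allow, so this loss does not show that the difference depends on those arrays. From LFD to HFD this pair differed by 0.65, with an adjusted p of 0.0552 by the exact test, and passed in 2 of 21. Ccl2 minus Ccl11 rose by 2.15 on HFD and fell by 2.10 on restriction (each adjusted p = 0.00577 by the exact test), and the HFD+CR and LFD means, -1.95 and -2.01, differed by 0.05 (adjusted p = 0.846 by the exact test). Ccl2 and Ccl11 were thus both above LFD in HFD+CR by sizes that this test did not separate.

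The ligand Ccl2 changed more than its receptor Ccr2, by 2.12 on HFD and by -1.34 on restriction (each adjusted p = 0.00577 by the exact test), and it stayed 0.77 further above LFD in HFD+CR (adjusted p = 0.024 by the exact test). This last call was lost in 8 of 21 alternative analyses, on leaving out HFD+CR mouse 1 or 5, LFD mouse 2, 3, 4 or 5, or LFD mice 3 and 6, and without the 4 arrays (0.71, adjusted p = 0.183 by the exact test). Ccl3 rose 2.11 more than Ccl5 on HFD and fell 1.13 more on restriction (each adjusted p = 0.00577 by the exact test). The receptors Ccr1 and Ccr2 were not separated: their within-array difference moved by -0.09, 0.07 and -0.03 in the 3 comparisons (adjusted p = 0.527, 0.645 and 0.846 by the exact test), with SDs of 0.19 to 0.24 within groups.

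**Figure D4:**
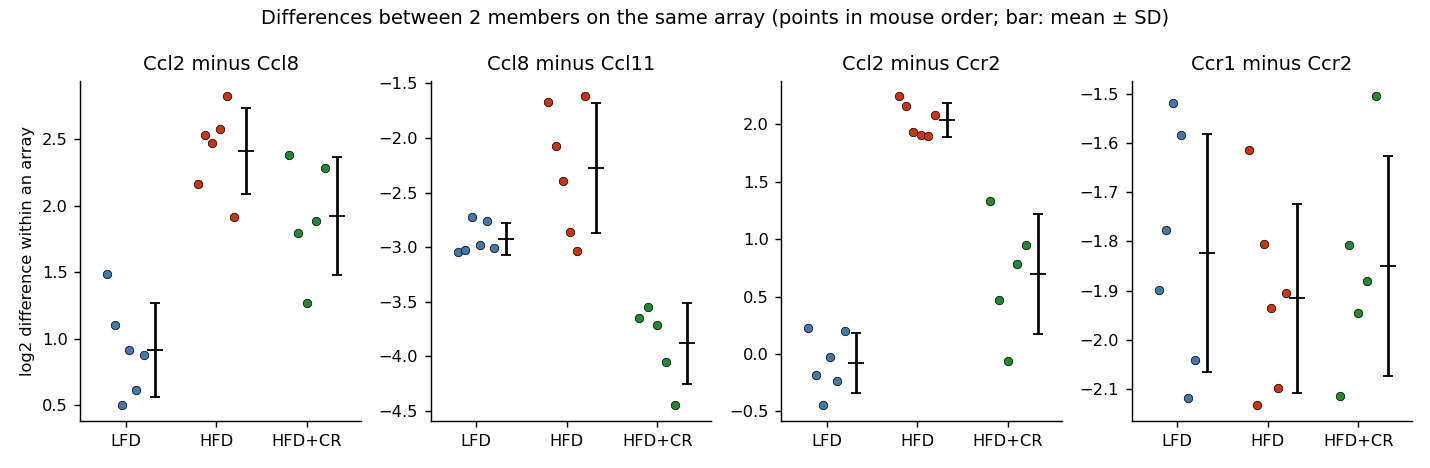
Difference between the log2 signals of a pair of genes on the same array, for each mouse (points, in mouse order), with the group mean ± SD; each panel has its own axis. Ccl8 minus Ccl11 is lowest in all 5 HFD+CR mice, and Ccr1 minus Ccr2 overlaps in all groups.

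The genes lie in 3 blocks of chemokine genes and receptors, in the gene order of RefSeq GRCm38.p6. On chromosome 11, Ccl2, Ccl7, Ccl11, Ccl12, Ccl8 and Ccl1 follow each other with 0 other protein-coding genes between them. Within this block Ccl2, Ccl7, Ccl11 and Ccl8 rose on HFD, while Ccl12, between Ccl11 and Ccl8, differed by -0.04 ± 0.13 (adjusted p = 0.853) and Ccl1 by 0.07 ± 0.07 (adjusted p = 0.512). Ccl12 and Ccl1 were below the array median in all 17 mice, where a change is poorly seen. On the same chromosome Ccl5, Ccl9, Ccl6, Ccl3 and Ccl4 follow each other. There Ccl9, Ccl6 and Ccl3 rose on HFD and fell on restriction, while Ccl5 and Ccl4 at the ends passed in neither comparison, Ccl4 with 0.07 ± 0.07 on HFD (adjusted p = 0.483). The Ccl4 signals, 7.36 to 7.76 in LFD, lay close above the array medians in all groups. On chromosome 9, Ccr1, Ccr1l1, Ccr3 and Ccr2 follow each other. Ccr3, the receptor of Ccl11, rose by 0.63 ± 0.10 on HFD (adjusted p = 0.000153) and fell by 0.65 ± 0.11 on restriction (adjusted p = 0.000362), although its signal was below the array median in every mouse.

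**Figure D5:**
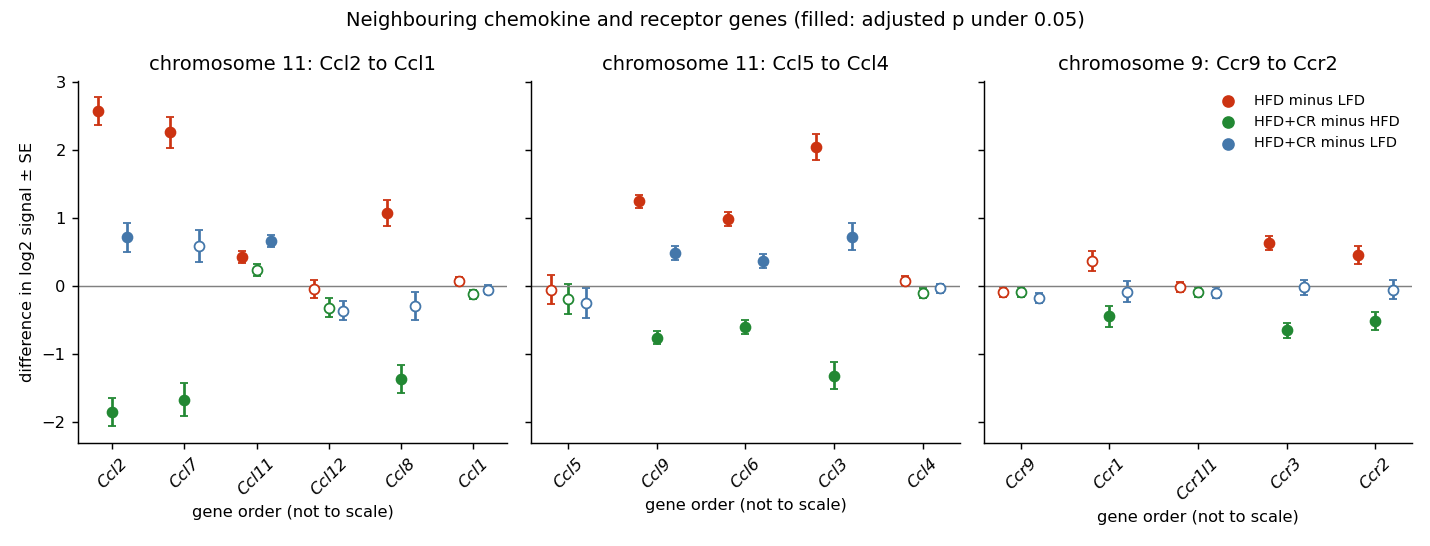
Difference in log2 signal ± SE in the 3 comparisons for genes in their order along the chromosome (spacing not to scale); filled points have an adjusted p under 0.05. Genes that differ by over 2, such as Ccl2 and Ccl3, lie beside or near genes that pass in no comparison, such as Ccl12 and Ccl4.

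Promoter sequences of 4 of the 8 genes were matched by symbol in RefSeq (GRCm38.p6), and 3 are shown, 1 gene from each block. Each is the 250 bases before the annotated start, read 5′ to 3′ on the strand of the gene, with matches to the searched motifs in capitals. Ccl8 is at chr11:82114935-82115184 on the plus strand, Ccl3 at chr11:83649379-83649628 on the minus strand and Ccr1 at chr9:123968693-123968942 on the minus strand.
Ccl8: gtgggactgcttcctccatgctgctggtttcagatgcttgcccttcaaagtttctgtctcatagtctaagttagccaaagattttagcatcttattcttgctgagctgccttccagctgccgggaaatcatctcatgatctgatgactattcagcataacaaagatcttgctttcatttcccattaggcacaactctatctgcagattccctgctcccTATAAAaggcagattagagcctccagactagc
Ccl3: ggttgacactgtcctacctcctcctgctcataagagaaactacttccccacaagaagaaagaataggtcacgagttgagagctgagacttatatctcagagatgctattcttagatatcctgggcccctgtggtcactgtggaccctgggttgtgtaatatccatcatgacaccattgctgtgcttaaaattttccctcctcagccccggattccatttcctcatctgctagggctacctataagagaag
Ccr1: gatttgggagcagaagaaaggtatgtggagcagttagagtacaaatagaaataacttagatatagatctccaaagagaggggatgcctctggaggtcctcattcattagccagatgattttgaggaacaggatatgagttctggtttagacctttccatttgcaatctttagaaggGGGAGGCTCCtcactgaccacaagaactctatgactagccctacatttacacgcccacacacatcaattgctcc
The motifs searched on both strands were the kappaB consensus of the NF-kappaB factors, TGANTCA for AP-1, TTGCNNAA for C/EBP, GAAANNGAAA for the interferon response element core, TTCNNNGAA for STAT factors and TATAAA for the TATA box. The capitals in Ccl8 are a TATAAA match 32 to 27 bases before the start, and those in Ccr1 a kappaB consensus match 74 to 65 bases before the start. The Ccl3 window, and that of Ccr2, held no match to these letters. Of 32534 mouse promoters of the same length, 12.3% held the TATAAA match and 7.28% the kappaB match, and the shares for the AP-1, C/EBP, interferon response element and STAT letters were 6.73%, 9.58%, 2.98% and 7.04%.

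Beside the counts of each list here and below stand the shares of all genes. On HFD 16.5% rose and 11.3% fell, and on restriction 7.69% rose and 11.3% fell. In HFD+CR 5.8% were above and 3.28% below LFD. A count near these shares is not particular to its list. Of 13 other CC ligand genes measured, 3 rose and 2 fell on HFD, with a median difference of 0.07. Those that rose were Ccl9 (1.25 ± 0.10), Ccl6 (0.98 ± 0.10) and Ccl22 (0.78 ± 0.15), of which Ccl9 and Ccl6 encode macrophage inflammatory protein related chemokines and Ccl22 attracts regulatory T cells through Ccr4. Those that fell were Ccl27a (-0.42 ± 0.08) and Ccl24 (-0.30 ± 0.09), the latter, like Ccl11, a ligand of Ccr3. On restriction Ccl9 fell by 0.76, Ccl6 by 0.61 and Ccl22 by 0.52, and Ccl27a rose by 0.33. Against LFD, Ccl9 (0.49 ± 0.10, adjusted p = 0.00473) and Ccl6 (0.37 ± 0.10, adjusted p = 0.0285) remained higher in HFD+CR. Ccl24 differed from Ccl11 in direction on HFD, although both products act on Ccr3.

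Of 12 other CC and atypical chemokine receptor genes, 2 rose and 0 fell on HFD, Ccr3 and Ccrl2 (0.62 ± 0.11), an atypical receptor that binds chemerin. On restriction 3 fell, Ccr3, Ccrl2 (-0.41 ± 0.11) and Ackr1 (-0.32 ± 0.09), the Duffy antigen receptor that takes up chemokines on venules and red cells. Between HFD+CR and LFD 0 of the 12 passed by limma, where the smallest adjusted p, that of Ccr9, was 0.177, and 1 was lower at an unadjusted p under 0.05. Ccr8, the receptor of mouse Ccl8, and Ccr4, that of Ccl22, were below the array median in all 17 mice.

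Genes of the other chemokine families moved in both directions. Of 17 CXC, CX3C and XC chemokine genes, 6 rose and 2 fell on HFD, and 2 rose and 6 fell on restriction. Cxcl14 rose by 0.93 ± 0.11 and Cxcl16, a membrane-bound chemokine that also takes up oxidised lipoprotein, by 0.83 ± 0.09 on HFD, while Cxcl9, which attracts T cells and is induced by interferon gamma, fell by 0.84 ± 0.07. Of the 9 receptors, 1 rose and 0 fell on HFD, and 0 rose and 3 fell on restriction. Cxcr4 rose by 0.96 ± 0.08 on HFD and remained 0.46 ± 0.08 above LFD in HFD+CR. Cx3cr1, the fractalkine receptor of monocytes and resident macrophages, fell by 0.32 ± 0.06 on restriction, and HFD+CR minus LFD was -0.30 ± 0.06 (adjusted p = 0.00443).

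Of 21 genes for signalling downstream of chemokine receptors, 17 rose and 1, the phospholipase gene Plcb3, fell on HFD (-0.16 ± 0.06), and 13 fell and 0 rose on restriction. The largest change was Rgs1, a brake on G protein signalling from these receptors, which rose by 2.89 ± 0.26 and fell by 1.76 ± 0.27, and stayed 1.13 ± 0.27 above LFD in HFD+CR. Its LFD signals of 6.29 to 7.10 were all below the array median. Pik3r5, the adaptor of phosphoinositide 3-kinase gamma, rose by 1.26 ± 0.11, Vav1, a Rac exchange factor, by 0.84 ± 0.12, and Dock2, the Rac exchange factor needed for leukocyte migration, by 0.74 ± 0.14. On restriction these fell by 0.78, 0.85 and 0.79. Many of these genes are leukocyte genes, and they stand beside the marker levels given below.

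Of 19 genes for transcription factors known to act on CC chemokine genes, 10 rose and 0 fell on HFD and 10 fell and 0 rose on restriction. The AP-1 gene Fos rose by 1.73 ± 0.11 and Junb by 0.58 ± 0.09, Irf8, a factor of the monocyte and macrophage lineage, by 0.97 ± 0.12, and Bcl3, a partner of NF-kappaB p50 and p52, by 0.55 ± 0.10. On restriction Fos fell by 1.29 ± 0.12, Irf8 by 0.96 ± 0.13, Bcl3 by 0.75 ± 0.11 and Rel by 0.60 ± 0.15. Of the NF-kappaB subunit genes, Nfkb2 rose on HFD (0.51 ± 0.06) and fell on restriction (-0.49 ± 0.07), as did Relb (0.22 ± 0.07 and -0.27 ± 0.07). Rel did not pass on HFD (0.18 ± 0.14). Rela, the common subunit, had group means of 11.11 to 11.16 and passed in no comparison.

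Most general macrophage markers moved in the directions of Ccl2, Ccl7, Ccl8 and Ccl3, while most resident macrophage markers did not pass. Ccl5 passed in no comparison, and Ccl11 did not fall on restriction. Of 13 macrophage genes 12 rose on HFD, among them Cd68 (1.92 ± 0.15) and Adgre1 (1.31 ± 0.14), and on restriction 12 fell and 1, the dead-cell uptake receptor Mertk, rose (0.39 ± 0.07). In HFD+CR 5 were above LFD, Cd68 by 0.93 ± 0.15. The mean of the 13 was 9.36 to 9.82 in LFD mice, 10.61 to 11.14 in HFD mice and 9.84 to 10.35 in HFD+CR mice, with no overlap between groups. Of 7 resident macrophage genes, 1 rose (Folr2, 0.81 ± 0.10) and 2 fell (Cd209g, -0.56 ± 0.16, and Timd4, -0.42 ± 0.11) on HFD, with a median difference of 0.05. On restriction 1 fell (Folr2, -0.51 ± 0.10) and 0 rose, and their mean overlapped in all groups, from 9.76 to 10.43 over the 17 mice. Of 9 monocyte genes 3 rose on HFD, among them Itgam (0.60 ± 0.14), while the classical monocyte gene Ly6c2 differed by -0.12 ± 0.09 and Plac8 by -0.03 ± 0.11, neither of which passed. On restriction 2 of the 9 fell, among them Itgam (-0.59 ± 0.15), and 0 rose, with a median difference of -0.27. Ly6c2 (-0.02 ± 0.09) and Plac8 (-0.29 ± 0.12) did not pass there. Of 9 fibroblast and progenitor genes 6 rose and 0 fell on HFD, and on restriction 4 fell (Lum, Col1a1, Col3a1 and Pdgfrb) and 0 rose, with a median difference of -0.19. In HFD+CR 3 were above LFD (Lum by 0.68, Pdgfra by 0.50 and Dcn by 0.18) and the other 6 did not pass. The mean of the 9 was 10.88 to 11.08 in LFD mice, 11.41 to 11.64 in HFD mice and 10.89 to 11.28 in HFD+CR mice, so it was lower in every HFD+CR mouse than in every HFD mouse, while the Ccl11 mean was highest in HFD+CR. Adipocyte genes went the other way, with 8 of 10 falling on HFD and 6 rising on restriction. The part of any of these in the chemokine differences was not tested.

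As a description of likeness, with no test, each gene was set against all others over the 17 arrays by Pearson's r, and again after each group's mean was taken away, so that only differences between mice of a group remained. The arrays share the diet groups, which raises the first value for any genes that differ by diet. Ccl2 and Ccl7 had r = 0.984 over all arrays and 0.893 after group means were removed, the closest pair of the 8 on both measures, and mouse 1 had the highest signal of both genes in each of the 3 groups. Ccl2 with Ccl3 had 0.911 and 0.228, and Ccl8 with Ccl3 0.690 and -0.005, so these ran together less among mice of a group than across the groups. Ccr1 and Ccr2 had 0.799 and 0.650.

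Outside the 8, the genes most like Ccl3 by both measures were Ctss, a macrophage cathepsin gene (r = 0.992, and 0.937 after group means), Slc11a1, a phagosomal metal transporter gene (0.990 and 0.928), and Tlr13, an endosomal sensor gene (0.989 and 0.922). Those most like Ccl2 over all arrays were Maoa (0.985), Tnfrsf23 (0.983) and 4931431B13Rik (0.981), of which Tnfrsf23 (0.885) was also among its closest after group means. For Ccl7 they were 4931431B13Rik (0.978), Maoa (0.971) and Slamf8 (0.967). For Ccl8 the closest was Bcl3 (0.965, and 0.864 after group means), followed by Limk1 (0.948 and 0.876).

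For Ccl5 the closest were the T cell receptor complex genes Cd3g (0.866, and 0.894 after group means) and Cd3e (0.858 and 0.913). In the plot of T cell genes LFD mice 5 and 1 both lie at the upper end, apart from the other mice. For Ccl11 they were Bmp3 (0.959) and Tln2 (0.955, and 0.893 after group means), for Ccr1 the properdin gene Cfp (0.918 and 0.907), and for Ccr2 the calponin gene Cnn2 (0.939 and 0.915). Among the 3 closest genes over all arrays, only Maoa and 4931431B13Rik were shared by any of the 8, by Ccl2 and Ccl7.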

How the data were processed

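Each of 17 mice gave 1 array. The authors deposited 1 log2 signal per probe set and array. R 3.5.0, limma and RMA are named in the submitters' processing notes without their roles. RMA is a method that removes background, puts arrays on 1 distribution and joins probes into probe sets. Precision rests on how many arrays a group has. Per the labels' protocols RNA had an integrity number above 7. Of 33793 probe sets, 23521 carried 1 gene symbol in the platform annotation, 1814 several and 8458 none. The brightest probe set of each gene gave 22180 genes, with no filter on low values.

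Group means were fitted over all 17 arrays by lmFit and eBayes, with no trend, of limma 3.58.1 (R 4.3.3), which left 14 residual degrees of freedom beside a prior of 3.625. Pairs of genes were tested by exact permutation with Python 3.11.15, and the fit was tested on simulated data. The 8 genes and the gene lists were chosen with earlier results of these data known. Named pathway genes are, per list and comparison, up to 4 that passed, by size of difference, or else the 2 of lowest p. Other genes named for their place in a gene block, as receptors of a ligand, as NF-kappaB subunits or as markers were picked for that role. Alternatives included leaving out each mouse, other normalizations, filters, thresholds and covariates, and centring on the median of each array's genes was added after seeing the data. The labels name no batch. RefSeq positions are given for promoters only, since the files name no build.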

Additional observations from a re-analysis of the deposited data

Results flagged for a closer look

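No value of the 8 genes stood apart from its group. Each group of mice was checked for a highest or lowest value far from the nearest other, by Dixon's 95% limit, over the 8 genes and the cell marker lists. Of 75 groups, 9 had such a value, all in marker lists, where chance gives about 1 in 20.

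The skeletal muscle mean was high in HFD mouse 6 (8.216) and HFD+CR mouse 2 (9.43). The prostate and accessory gland mean was high in LFD mouse 3 (8.585) and HFD mouse 3 (7.733), and the male germ cell mean in HFD+CR mouse 1 (9.198). HFD+CR mouse 1 had the highest Ccl2, Ccl7, Ccl8, Ccl3 and Ccl11 signals of its group and the lowest Ccl5 signal. The monocyte mean was low in HFD mouse 5 (8.796), which also had the lowest HFD signals of Ccl8, Ccl5 and Ccr1. The B cell mean was low in LFD mouse 6 (8.03), the mouse with the lowest LFD signals of Ccl3, Ccl5, Ccr1 and Ccr2. Though not flagged for them, LFD mouse 6 also had the lowest LFD means of the macrophage, resident macrophage, monocyte, T cell and NK cell lists. The same held for the eosinophil, mast cell and neutrophil lists, while its adipocyte and fibroblast means were the highest in LFD. The dendritic cell mean was high in LFD mouse 5 (8.359), the mouse with the highest Ccl5 and Ccl8 signals of its group, and the endothelial mean was low in HFD mouse 1 (9.901), which had the highest HFD signals of Ccl2, Ccl7, Ccl8, Ccr1 and Ccr2.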

How the results depend on the processing

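The counts of the 8 genes that passed, 6 for HFD minus LFD and 6 for HFD+CR minus HFD, stayed within 6 to 7 and 5 to 7 when each mouse was left out. The first was 5 without LFD mice 3 and 6 or at an adjusted p under 0.01 and 4 at 1.5-fold or more, and the second 5 with every probe set tested and 4 at each of these stricter thresholds. In the other alternatives both were 6 or 7. Wherever the second count was 7, it held 6 decreases and 1 increase, that of Ccl11. Among genes above the median level, where 7 of the 8 were tested, it held 5 decreases and 1 increase, also that of Ccl11. The 3 genes above LFD in HFD+CR ranged from 1 to 3 when each mouse was left out, and were 1 with only the 2 groups compared, without LFD mice 3 and 6, with a skeletal muscle covariate and at an adjusted p under 0.01, with Ccl11 passing in all 33 alternatives. Of the 25 other CC genes, 7 passed for HFD+CR minus HFD, with 4 at an adjusted p under 0.01 and 3 at 1.5-fold or more. The 2 of them that passed against LFD ranged from 1 to 4 when each mouse was left out. That count was 4 with array weights, 0 at 1.5-fold or more, and 1 with only the 2 groups compared, without the 4 arrays with other tissue, without LFD mice 3 and 6, or at an adjusted p under 0.01. Of the pair tests 15 passed, 12 to 16 when each mouse was left out, and 9 without the 4 arrays with other tissue, where fewer mice remained and the smallest possible p was larger. Those 4 were LFD mice 2 and 3, HFD mouse 3 and HFD+CR mouse 2. HFD+CR mouse 1, with its high germ cell mean, was kept. So were HFD mouse 6 and LFD mouse 5, with muscle means of 8.22 and 8.10.

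Over all alternatives, the results of single genes kept direction and call 719 times, lost a call 46 times, gained one 19 times and changed sign 5 times, always where no call had been made. The sign changes came from leaving out a mouse, with Ccl5 for HFD minus LFD from -0.19 to 0.17 and Ccr2 for HFD+CR minus LFD from -0.13 to 0.0574. Among the pairs, Ccl2 minus Ccl11 for HFD+CR minus LFD ran from -0.12 to 0.17, and was -0.0302 without the 4 arrays with other tissue and -0.0292 without LFD mice 3 and 6. Ccr1 minus Ccr2 ran from -0.11 to 0.0386 for HFD+CR minus LFD, was 0.0497 without the 4 arrays, and ran from -0.0206 to 0.13 for HFD+CR minus HFD. The causes were not tested.

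The labels do not say that mice of the same number belong together, and the main fit did not pair them. Deviations of same-numbered mice correlated from -0.11 to 0.41. Of the mice, 1 of 6, 1 of 5 and 2 of 5 were closest to their own number. This check cannot tell whether same-numbered mice shared handling. With the number as a replicate block, 7, 6 and 3 of the 8 genes passed in the 3 comparisons. Ccr1 then passed for HFD minus LFD (adjusted p = 0.0302 by limma), and for HFD+CR minus LFD Ccl7 passed (0.56, adjusted p = 0.0113 by limma) and Ccl3 did not (0.69, adjusted p = 0.0778 by limma).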
